A study of Homo sapiens with 9 samples.

Results

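Of the 10 circadian clock genes BHLHE40, BHLHE41, ARNTL (also called BMAL1), CLOCK, PER1, PER2, PER3, CRY1, CRY2 and NR1D1, 9 have a row among the 25084 genes of the deposited expression table and are described here. BHLHE41 has no row under that name and is not analysed here. The genes were taken by symbol as the core of the clock, and the group was selected on the CPM of BHLHE40, which had the largest fall in siMYCN against siCTR among genes that averaged 5 CPM or more and whose libraries did not overlap. Among all 14495 genes tested its fall ranked 4. That difference of BHLHE40 is therefore given as a description, with no test, and the same holds for every clock gene in the comparison that showed it. RNA sequencing was done on LAN5 cells, an established human neuroblastoma line, in 9 libraries. All cells received a small interfering RNA (siRNA, a short RNA that has a matching transcript cut and degraded) by nucleofection and were collected 72 h later from medium with serum. There were 3 groups, each with 3 libraries: a control siRNA (siCTR), 1 siRNA against MYCN (named siMYCN_2 in the labels and siMYCN here) and 1 siRNA against HAND2 (named siHAND2_3 and here siHAND2). With 1 siRNA for each target, effects of the target and of the siRNA sequence cannot be told apart. The hour of collection and the origin of the replicates are not given in the sources used here, so p-values measure only the spread between these libraries, which may be technical.

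The circadian clock is a loop of transcription factors. CLOCK and ARNTL pair and bind E-box sequences in the promoters of PER and CRY genes, whose proteins return to the nucleus and block that pair. In a side loop the same pair drives NR1D1, which encodes the nuclear receptor REV-ERB alpha, and this receptor represses ARNTL through elements that the ROR receptors activate. BHLHE40 (also called DEC1) is a helix-loop-helix repressor that binds E-boxes, is itself driven by them and competes with CLOCK and ARNTL. MYCN, paired with MAX, also binds E-boxes of the form CACGTG.

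Promoter sequences show which of these elements lie close to the start sites of the genes whose levels are described below. RefSeq promoter windows (GRCh38.p14, 250 bases before the annotated start and 50 from it on) were found for all 10 genes, as 14 windows. The letters CACGTG (E-box, the same on both strands), CACGTT (E-prime box, a variant known from the PER2 promoter), AGGTCA (the core of the ROR and REV-ERB element) and TTANGTAA (D-box, bound by DBP, TEF, HLF and NFIL3) were searched on both strands. CACGTG occurred in 3 of the 14 windows and in 7.26% of all 35116 windows of the same length. CACGTT occurred in 5 of 14 against 5.34% of all, AGGTCA in 4 of 14 against 13.8%, and TTANGTAA in 2 of 14 against 2.18%. The windows of BHLHE40, PER1, PER2 and NR1D1 are shown as examples of genes lower after a knockdown, with the E-box or E-prime box in capitals, and that of ARNTL because it was higher, with AGGTCA in capitals. They lie at chr3:4979187-4979486 (plus strand), chr17:8152355-8152654 (minus), chr2:238288561-238288860 (minus), chr17:40100540-40100839 (minus) and chr11:13277540-13277839 (plus), each written 5′ to 3′ on the strand of its gene.
BHLHE40: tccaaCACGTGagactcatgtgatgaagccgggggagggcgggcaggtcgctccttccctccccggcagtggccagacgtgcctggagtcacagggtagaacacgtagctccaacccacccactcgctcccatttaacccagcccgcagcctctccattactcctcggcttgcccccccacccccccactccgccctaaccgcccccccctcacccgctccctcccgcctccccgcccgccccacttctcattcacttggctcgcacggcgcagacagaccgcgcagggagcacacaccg
PER1: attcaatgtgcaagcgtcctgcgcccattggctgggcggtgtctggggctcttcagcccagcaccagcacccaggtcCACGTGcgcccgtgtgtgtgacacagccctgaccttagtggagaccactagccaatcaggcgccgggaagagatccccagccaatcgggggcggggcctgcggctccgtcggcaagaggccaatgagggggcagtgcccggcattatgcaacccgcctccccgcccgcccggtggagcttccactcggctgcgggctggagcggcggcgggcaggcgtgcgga
PER2: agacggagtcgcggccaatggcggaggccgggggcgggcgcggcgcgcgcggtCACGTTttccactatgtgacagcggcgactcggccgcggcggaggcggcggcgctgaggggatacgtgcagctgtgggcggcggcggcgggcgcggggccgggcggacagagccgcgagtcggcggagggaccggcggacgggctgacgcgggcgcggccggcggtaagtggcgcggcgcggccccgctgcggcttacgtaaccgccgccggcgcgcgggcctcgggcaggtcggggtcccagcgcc
NR1D1: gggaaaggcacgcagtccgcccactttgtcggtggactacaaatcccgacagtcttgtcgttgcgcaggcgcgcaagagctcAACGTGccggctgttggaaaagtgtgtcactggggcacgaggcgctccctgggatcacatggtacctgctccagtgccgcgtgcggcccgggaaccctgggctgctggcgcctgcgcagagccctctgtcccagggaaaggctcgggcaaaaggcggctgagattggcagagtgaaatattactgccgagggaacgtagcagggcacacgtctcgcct
ARNTL: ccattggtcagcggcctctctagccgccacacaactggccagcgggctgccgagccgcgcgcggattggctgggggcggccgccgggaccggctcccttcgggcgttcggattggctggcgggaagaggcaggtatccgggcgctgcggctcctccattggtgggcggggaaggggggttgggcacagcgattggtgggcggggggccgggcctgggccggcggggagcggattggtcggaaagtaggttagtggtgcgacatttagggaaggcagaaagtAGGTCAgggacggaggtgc
With the start site counted as 0, the E-box began at -245 in BHLHE40 and at -173 in PER1. The E-prime box began at -197 in PER2 and at -168 in NR1D1, in NR1D1 on the opposite strand, and AGGTCA began at 31 in the second ARNTL window. BHLHE41, which has no expression row, also held CACGTG, at -48. The motif in capitals was chosen gene by gene. AGGTCA also began at -144 in the PER1 window, on the opposite strand, and lay in both CRY2 windows. E-prime boxes also lay in windows of CLOCK, CRY1 and CRY2, and the first ARNTL window held none of the 4 motifs. Motifs were not tested against the direction of change. A match describes letters in the window and is not evidence that a factor was bound there.

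**Figure D1:**
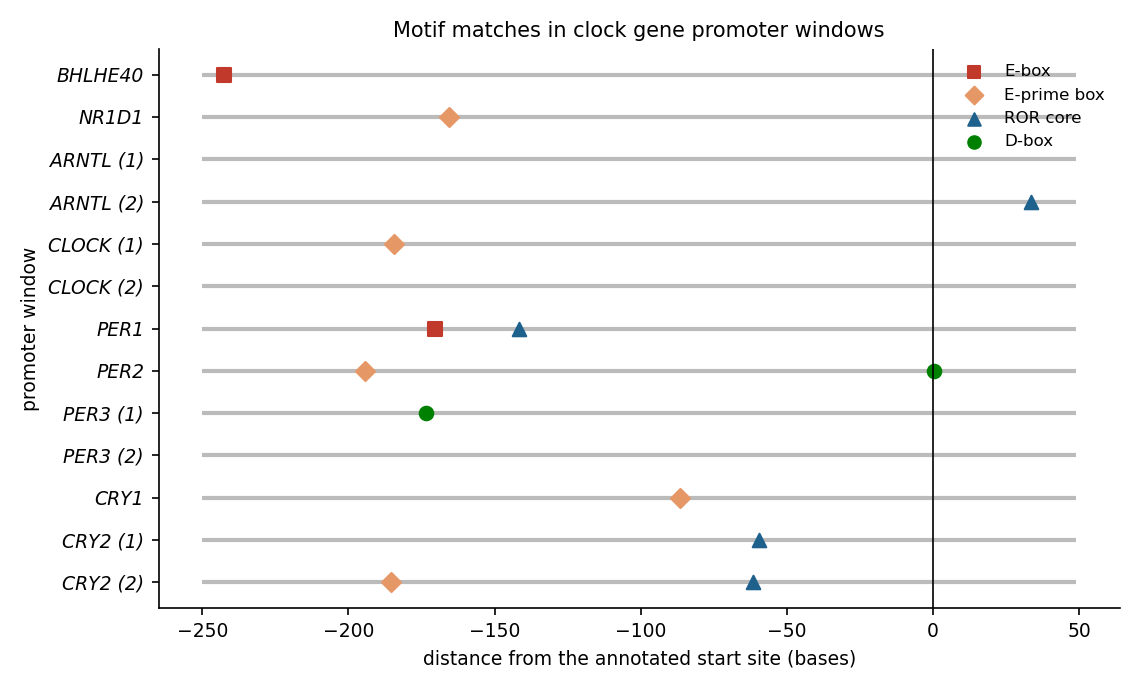
Matches to 4 motifs in the 13 promoter windows of the 9 clock genes with an expression row; the horizontal axis is the distance in bases from the annotated start site, and each grey line is 1 window. E-boxes appear in BHLHE40 and PER1 and E-prime boxes in NR1D1, CLOCK, PER2, CRY1 and CRY2.

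The values are CPM, read counts scaled to the same total of reads assigned to genes, over 21.0 to 32.7 M assigned reads per library as read from the steps between low values. At 1 CPM, counting error alone gave a coefficient of variation of 17.5% to 21.8%. The mean of MYCN was 1842 CPM with siCTR, 1289 with siMYCN and 914 with siHAND2, and that of HAND2 501, 571 and 272 CPM, so each siRNA went with a lower level of its target. MYCN also fell in siHAND2 (log2 fold change -1.01, limma, adjusted p = 1.72e-10). It was lower there than in siMYCN (-0.50, limma, adjusted p = 6.21e-07). HAND2 rose in siMYCN (0.19, limma, adjusted p = 0.00183). All 8 neuroblastoma and sympathetic markers examined were detected. In siMYCN 7 of them rose, and in siHAND2 STMN2, GAP43 and NEFM rose and DBH and TH fell. Their summed level was 2002 to 2142 CPM with siCTR, 2554 to 2641 in siMYCN and 2135 to 2256 in siHAND2. Of 10 blood, endothelial and epithelial markers 5 had a row, and their summed level was 3.35 to 5.14 CPM over the 9 libraries, with PTPRC, PECAM1 and CDH5 at most 0.0589 CPM in any group mean. Of 8 fibroblast and mesenchymal markers 7 were tested, all but COL1A1. In siMYCN 6 rose, and in siHAND2 6 rose and 1 fell. Of all genes tested 24.5% were called higher and 11.4% lower in siMYCN, and 18.1% higher and 11.8% lower in siHAND2. Among the 6 was DCN, at 0.397, 0.374 and 0.522 CPM with siCTR. It reached 1 CPM only in knockdown libraries and passed the filter (1 CPM in 3 libraries) through them, so its rise is a description. The summed level of the 8 markers was 609 to 655 CPM with siCTR, 842 to 878 in siMYCN and 1192 to 1331 in siHAND2. Most of it was VIM, while COL1A1 stayed below 1 CPM in every group mean. The part of these markers in the clock gene differences was not tested. In RNA from whole cultures, fewer cells of a type and less RNA per cell cannot be told apart.

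In control cells the clock genes covered a wide range of levels. Compared per length (CPM divided by the kilobases of annotated exons), CRY1 stood highest at 8.04 ± 0.0972 CPM per kb (SD, n = 3 libraries). BHLHE40 followed at 3.70 ± 0.590, CLOCK at 3.45 ± 0.368, CRY2 at 3.00 ± 0.346 and PER3 at 2.86 ± 0.0546 CPM per kb, and each of these 4 overlapped its neighbour in the order. ARNTL at 2.54 ± 0.0988, PER2 at 1.87 ± 0.0402 and PER1 at 1.66 ± 0.103 CPM per kb were each apart from the next. NR1D1 was the lowest at 0.561 ± 0.0746 CPM per kb. The place of BHLHE40 in this order differed between the groups. In siMYCN it was at 1.44 ± 0.0868 CPM per kb, below the mean of PER2 (1.74 ± 0.160) and near that of PER1 (1.32 ± 0.195), and in siHAND2 at 1.99 ± 0.351, below all means but those of PER2, PER1 and NR1D1.

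**Figure D2:**
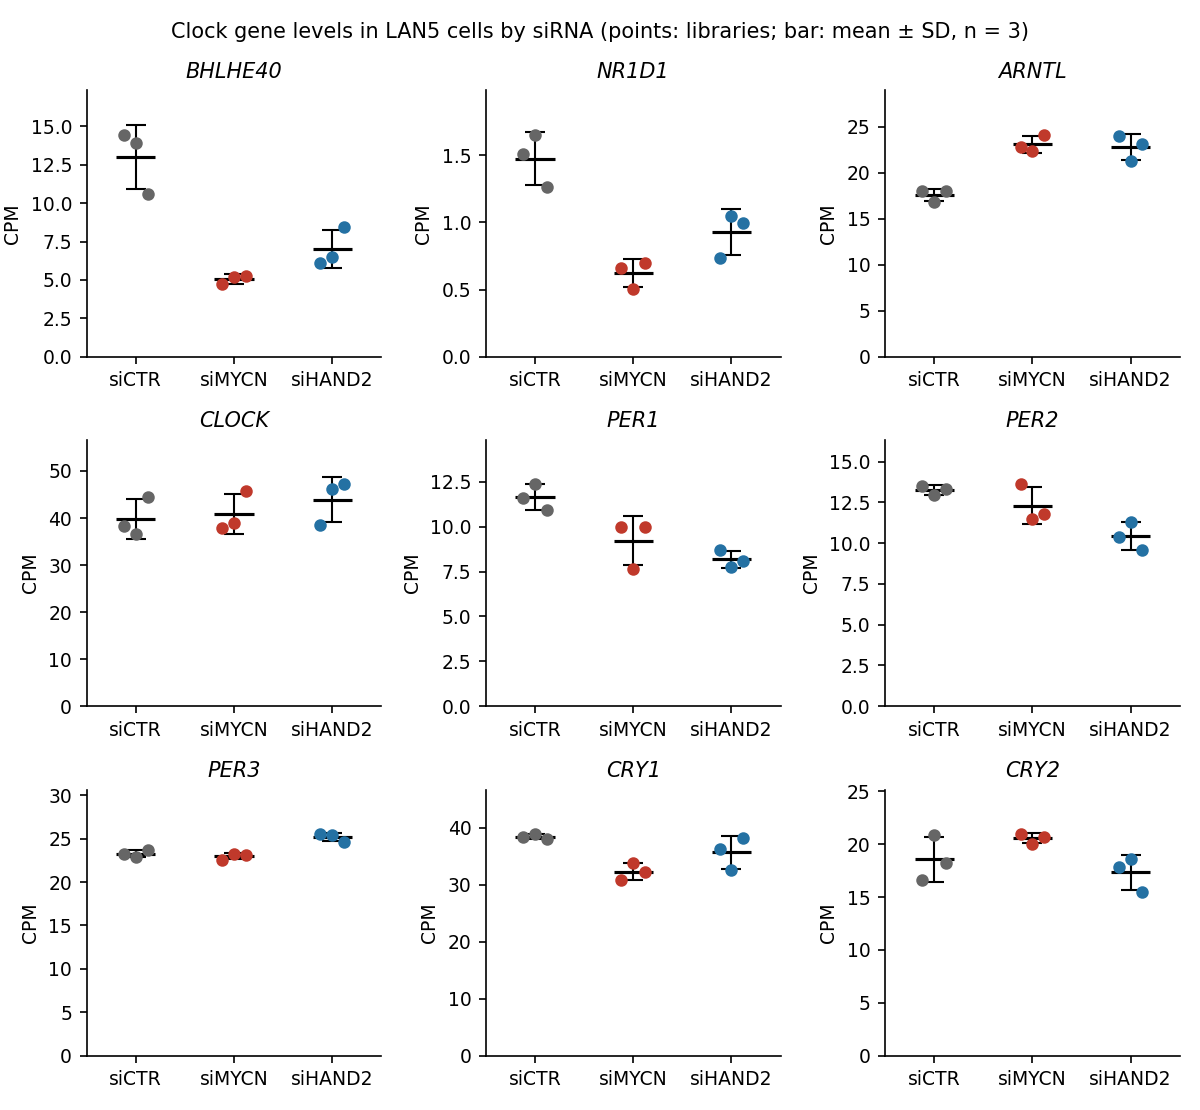
CPM of the 9 clock genes in every library (points), by siRNA on the horizontal axis, with the mean and SD of 3 libraries in black; each panel has its own linear axis from 0. BHLHE40 and NR1D1 are highest in all 3 siCTR libraries and lowest in siMYCN, and ARNTL is lowest in siCTR.

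BHLHE40 (chromosome 3, 4979437 to 4985323, GRCh38) stood at 14.5, 13.9 and 10.6 CPM in the control libraries, replicates 1 to 3 in order. With siMYCN it stood at 4.71, 5.18 and 5.28 CPM, and with siHAND2 at 6.13, 6.48 and 8.42 CPM. The 3 groups did not overlap: every siMYCN library lay below every siHAND2 library, and every siHAND2 library below every siCTR library. Relative to the siCTR mean, the level was 38.9% with siMYCN and 53.9% with siHAND2. On the scale of log2(CPM + 1) the difference from siCTR was -1.20 (standard error 0.12) in siMYCN and -0.80 (standard error 0.12) in siHAND2, and siHAND2 lay 0.39 (standard error 0.12) above siMYCN. Replicates 3 of siCTR and siHAND2 stood closest together. Without siCTR replicate 3 the differences from siCTR were -1.33 and -0.93, and without siHAND2 replicate 3 the gap between the knockdowns was 0.27. Since the siCTR and siMYCN libraries chose this gene, none of its 3 differences is given a test. Where the mean reached 5 CPM and all siMYCN libraries lay below siCTR, the next largest differences were -1.15 for SNORD3B-2 and -1.07 for THBS2. The antisense gene BHLHE40-AS1 overlaps the first 978 bases of BHLHE40, and use of strand in counting is not given in the sources used here. Its mean was 0.257, 0.132 and 0.288 CPM with siCTR, siMYCN and siHAND2, low beside BHLHE40.

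The same comparison of siMYCN with siCTR was read for the other clock genes, although MYCN itself was lower still in siHAND2. NR1D1 (chromosome 17, 40092793 to 40100589), a repressor of ARNTL, stood at 1.51, 1.65 and 1.26 CPM with siCTR and 0.660, 0.505 and 0.700 CPM with siMYCN. Each siMYCN library lay below each siCTR library, and the mean was 42.1% of that in siCTR. The log2 difference of -0.61 understates this ratio because 1 CPM is added to each value, and with 0.1 CPM added it was -1.13. ARNTL (chromosome 11, 13276652 to 13387266) stood at 18.0, 16.8 and 18.0 CPM with siCTR and 22.8, 22.3 and 24.1 CPM with siMYCN. The groups did not overlap, with siMYCN at 131% of the siCTR mean and a log2 difference of 0.37 (standard error 0.06). NR1D2, the paralog of NR1D1, had means of 95.5 CPM with siCTR, 91.8 with siMYCN and 89.1 with siHAND2. Its libraries in each knockdown overlapped those of siCTR. A link between the differences of NR1D1 and ARNTL was not tested.

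The negative arm of the loop was not uniform in siMYCN. PER1 (chromosome 17, 8140472 to 8156506) stood at 11.6, 12.4 and 10.9 CPM with siCTR and 9.99, 7.63 and 10.0 CPM with siMYCN, groups that did not overlap, with a difference of -0.31 (standard error 0.09). CRY1 (chromosome 12, 106991364 to 107093549) stood at 38.4, 39.0 and 38.1 CPM with siCTR and 30.8, 33.9 and 32.3 CPM with siMYCN, again apart, with a difference of -0.24 (standard error 0.06). For PER2, PER3, CRY2 and CLOCK the siMYCN and siCTR libraries overlapped. Their differences were -0.10 (PER2), -0.02 (PER3), 0.15 (CRY2) and 0.04 (CLOCK), with standard errors of 0.05 to 0.09. NR1D1 is left out of the count, for its place near the filter on low values given below. The libraries lay apart in 3 of the 7 genes besides BHLHE40 and NR1D1, 1 higher and 2 lower. The share of all genes tested that lay apart was 49.5% (33.4% higher, 16.1% lower). Nothing is read from this count, as the comparison chose the group. The median difference over all genes tested was 0.06. Of all genes called, 68.3% were higher with CPM as deposited and 49.7% after median-ratio rescaling.

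The comparison of siHAND2 with siCTR was not the one on which the group was selected, although it shares the siCTR libraries. The genes were still chosen with earlier results of these data known, and the p-values below are to be read with that limit. ARNTL rose, and PER1 and PER2 fell. ARNTL stood at 24.0, 21.3 and 23.1 CPM with siHAND2, above all siCTR libraries and at 130% of their mean. On the log2 scale the rise was 0.36 (limma, standard error 0.06, Benjamini-Hochberg adjusted p = 0.00048). PER1 stood at 8.68, 7.77 and 8.08 CPM with siHAND2, below the lowest siCTR library, and fell by 0.46 on the log2 scale (standard error 0.09, limma, adjusted p = 0.00161).

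PER2 (chromosome 2, 238244044 to 238290102) stood at 13.5, 13.0 and 13.3 CPM with siCTR, 13.6, 11.5 and 11.8 CPM with siMYCN and 10.4, 11.3 and 9.60 CPM with siHAND2. The siHAND2 libraries lay below all libraries of both other groups. PER2 fell by 0.32 against siCTR (standard error 0.08, limma, adjusted p = 0.00573). The calls of ARNTL, PER1 and PER2 against siCTR held under all 18 alternative settings, including each library left out in turn.

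NR1D1 stood at 0.732, 1.05 and 0.997 CPM with siHAND2, each below the lowest siCTR library and above the highest siMYCN library, at 62.8% of the siCTR mean. On the log2 scale it differed by -0.36 (standard error 0.13). NR1D1 reached 1 CPM in 4 libraries, the 3 siCTR libraries and 1 siHAND2 library, and so passed the filter on low values (1 CPM in 3 libraries) through the group in which it is highest. Its difference from siCTR is therefore given with no test and is left out of the counts against siCTR. NR1D1 is kept in the counts between the knockdowns. Its lowest value stood for about 13.2 reads. The last 1075 bases of NR1D1 overlap THRA on the other strand, which was at 30.3 ± 0.297, 31.5 ± 1.29 and 31.9 ± 2.43 CPM with siCTR, siMYCN and siHAND2 (SD, n = 3 libraries). Without stated use of strand, reads from that stretch cannot be told apart.

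The other 4 genes did not pass the test in siHAND2. PER3 (chromosome 1, 7784320 to 7845177) stood at 23.3, 22.8 and 23.7 CPM with siCTR and 25.5, 25.4 and 24.6 CPM with siHAND2, groups apart but close, with a difference of 0.11 (95% interval -0.0045 to 0.22, adjusted p = 0.138). CLOCK (chromosome 4, 55427903 to 55546909) stood at 38.2, 36.5 and 44.6 CPM with siCTR and 38.5, 46.2 and 47.2 CPM with siHAND2, with a difference of 0.14 (95% interval -0.04 to 0.32). CLOCK overlaps TMEM165 on the other strand, whose means were 33.9, 33.0 and 34.0 CPM with siCTR, siMYCN and siHAND2. CRY1 stood at 36.4, 32.6 and 38.3 CPM with siHAND2, where replicate 3 lay within the siCTR range, with a difference of -0.11 (95% interval -0.23 to 0.02), which passed under median-ratio rescaling (-0.16, adjusted p = 0.0491). CRY2 (chromosome 11, 45847118 to 45883248) stood at 16.6, 20.9 and 18.3 CPM with siCTR and 17.8, 18.6 and 15.5 CPM with siHAND2, with a difference of -0.09 (95% interval -0.27 to 0.08).

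Of the 7 genes besides BHLHE40 and NR1D1, 3 thus passed in siHAND2, 1 higher and 2 lower, where 29.9% of all genes passed (18.1% higher, 11.8% lower). The libraries lay apart in 4 of the 7, 2 higher and 2 lower, where this held for 42.4% of all genes (25.8% higher, 16.6% lower). The median log2 fold change of the 7 was -0.09, against 0.04 over all genes tested. The summed mesenchymal markers, mostly VIM, were at their highest in siHAND2, while CD44 was called lower there. The part of these markers in the differences of the 7 genes was not tested.

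**Figure D3:**
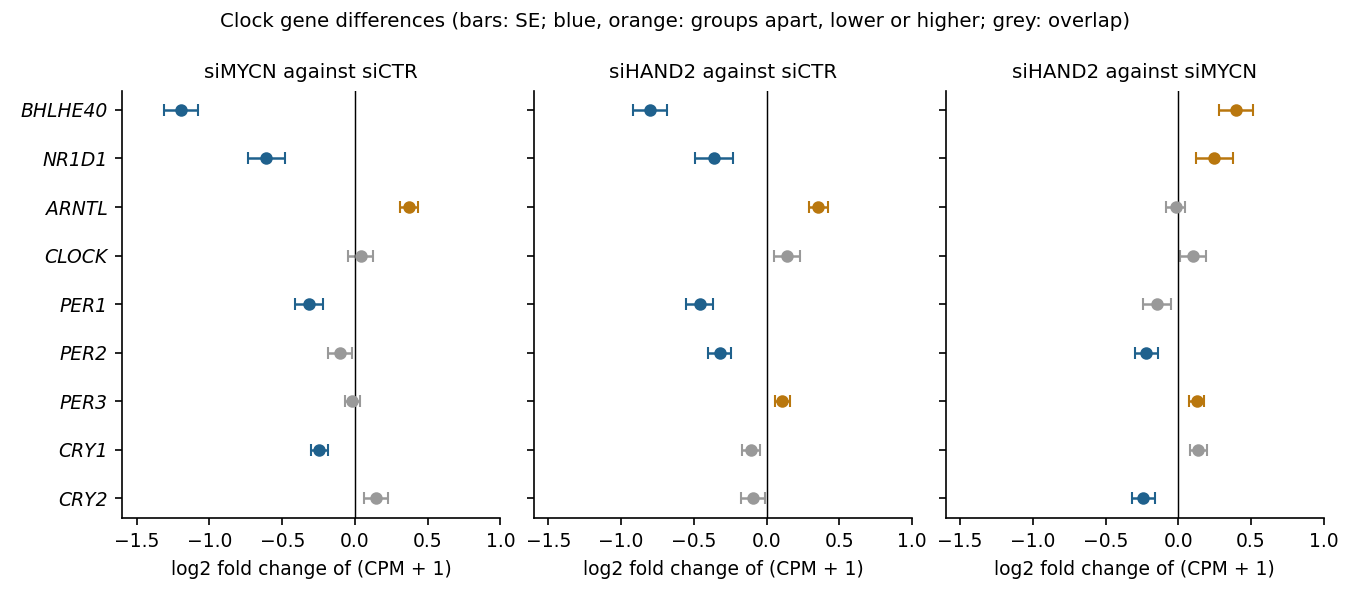
Log2 fold change of (CPM + 1) for the 9 clock genes in the 3 comparisons, with standard errors as bars; blue and orange mark genes whose groups of 3 libraries lie apart, lower or higher, and grey marks overlap. ARNTL lies above 0 in both comparisons against siCTR (0.37 and 0.36) and near 0 between the knockdowns (-0.02).

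Whether the knockdowns differed from each other was tested by setting siHAND2 against siMYCN, in which the siCTR libraries play no part in the difference. They still enter the estimate of spread, and the siMYCN libraries entered the choice of the group. Only CRY2 passed among the 8 genes besides BHLHE40, where 26.9% of all genes passed (11.4% higher, 15.5% lower). The libraries lay apart in 4 of the 8, 2 higher and 2 lower in siHAND2, where this held for 38.7% of all genes (17.1% higher, 21.6% lower). CRY2 stood at 21.0, 20.1 and 20.7 CPM with siMYCN, above all siHAND2 libraries, and was lower in siHAND2 with a difference of -0.24 (limma, standard error 0.08, adjusted p = 0.0386). That call was lost in 8 of 18 alternatives, among them both other library scalings and the fits without siMYCN replicate 1 (adjusted p = 0.102), siMYCN replicate 2 (0.063), siMYCN replicate 3 (0.0891) or siHAND2 replicate 3 (0.145). PER2 lay just outside the threshold at -0.22 (adjusted p = 0.0508), with all siHAND2 libraries below all siMYCN libraries. It was inside the threshold in 5 of 18 alternatives, among them the fits without siMYCN replicate 2 (adjusted p = 0.0437) or siHAND2 replicate 2 (0.0335).

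The level of ARNTL differed between the knockdowns by -0.02 (95% interval -0.15 to 0.12). NR1D1 differed by 0.25 (95% interval -0.02 to 0.52), PER1 by -0.15 (-0.35 to 0.06), PER3 by 0.13 (0.01 to 0.24), CRY1 by 0.14 (0.01 to 0.27) and CLOCK by 0.10 (-0.08 to 0.29), none past the adjusted threshold. PER1 passed without siMYCN replicate 2 (-0.26, adjusted p = 0.0396) and CRY1 without siHAND2 replicate 2 (0.20, adjusted p = 0.0259), and PER3 under quantile normalization (0.16, adjusted p = 0.0315).

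The genes whose pattern over the 9 libraries was most like that of BHLHE40 were TMEM64, RSL1D1, MXI1, TOMM20 and SLC6A15. They were taken as the 5 highest Pearson correlations of log2(CPM + 1) among 11200 genes that averaged 5 CPM or more, at 0.992, 0.992, 0.987, 0.986 and 0.984. These are descriptions over 9 libraries in 3 separate groups, which share the scaling of each library. TMEM64 went from 86.3 ± 4.61 CPM with siCTR to 70.1 ± 1.43 with siMYCN and 75.8 ± 2.85 with siHAND2 (SD, n = 3 libraries). MXI1, an antagonist of MYC proteins that binds MAX, went from 91.5 ± 4.20 to 63.7 ± 0.657 and 74.3 ± 2.79 CPM. The amino acid transporter gene SLC6A15 went from 100.1 ± 3.66 to 59.8 ± 1.63 and 67.7 ± 3.90 CPM. In each of the 5 genes, as in BHLHE40, siCTR replicate 3 was the lowest siCTR library and siHAND2 replicate 3 the highest siHAND2 library. The choice by correlation over these same libraries favours such a shared order.

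**Figure D4:**
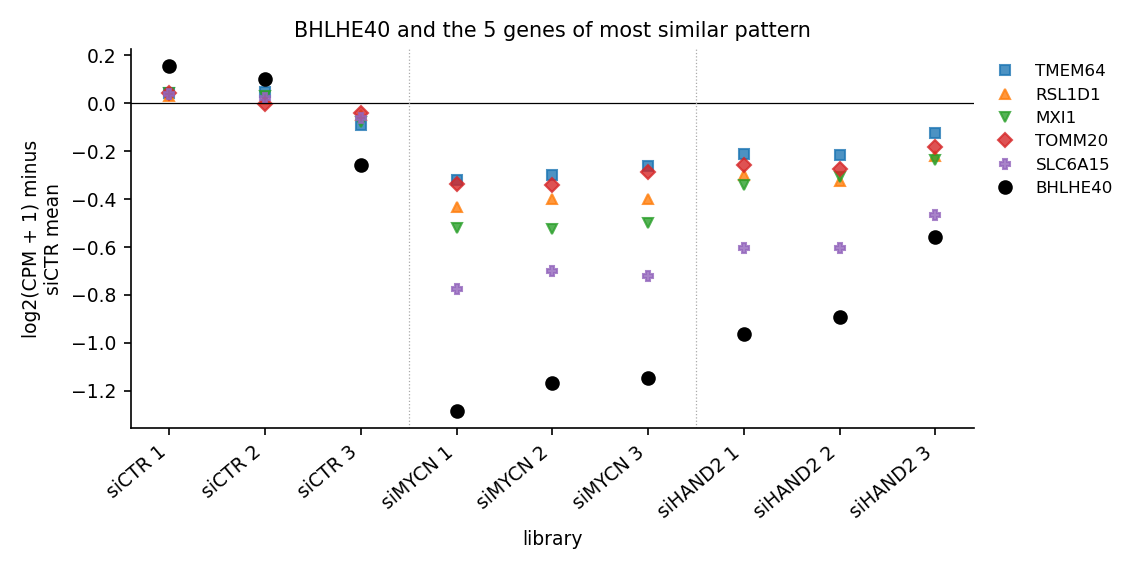
Log2(CPM + 1) of BHLHE40 (black) and the 5 genes of most similar pattern in each of the 9 libraries on the horizontal axis, each set to 0 at its siCTR mean. BHLHE40 has the widest range, and all 6 genes are lower in the siMYCN and siHAND2 libraries than in siCTR.

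The surrounding clock machinery was read from 3 wider lists of 32 genes, all with a row. These lists were chosen with earlier results of these data known, and siMYCN against siCTR is the comparison that selected the group. The adjusted p-values of the listed genes are to be read with that limit. Of the 7 loop partners (paralogs and further members of the loops) 6 passed the filter on low values, and NPAS2 did not. In siMYCN 3 rose and 1 fell, and in siHAND2 1 rose and 1 fell, with medians of 0.18 and -0.07. Of all genes tested 35.9% were called in siMYCN (24.5% higher, 11.4% lower) and 29.9% in siHAND2 (18.1% higher, 11.8% lower), the shares against which the counts of the 3 lists are to be read. CIART, a repressor of CLOCK and ARNTL also called CHRONO, stood at 10.2, 9.58 and 10.3 CPM with siCTR, 6.77, 5.83 and 6.27 CPM with siMYCN and 5.79, 6.65 and 6.98 CPM with siHAND2. Every knockdown library was below every siCTR library, while the knockdowns overlapped. CIART fell by 0.60 in siMYCN (limma, adjusted p = 6.01e-05) and by 0.56 in siHAND2 (adjusted p = 0.000118), and both calls held under all 18 alternatives.

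The ROR receptor genes, activators at the elements that NR1D1 represses, differed between the knockdowns. RORA stood at 21.2, 19.5 and 21.1 CPM with siCTR, 27.0, 30.7 and 30.7 CPM with siMYCN and 14.6, 17.9 and 20.9 CPM with siHAND2. It rose by 0.49 in siMYCN (limma, adjusted p = 0.000824), and siHAND2 lay below siMYCN by a log2 fold change of -0.71 (adjusted p = 3.11e-05). RORB stood at 120, 107 and 121 CPM with siCTR, 130, 124 and 142 CPM with siMYCN and 170, 184 and 175 CPM with siHAND2. It rose by 0.60 in siHAND2 (adjusted p = 5.67e-07) and was higher there than in siMYCN by 0.42 (adjusted p = 3.19e-05). Its rise of 0.18 in siMYCN (adjusted p = 0.0183) was lost under both other scalings, without the intensity trend and without siCTR replicate 2 or siMYCN replicate 3. TIMELESS, known for its part in DNA replication as well as for its name in the fly clock, rose by 0.18 in siMYCN (adjusted p = 0.00345), a call lost under median-ratio rescaling, and was lower in siHAND2 than in siMYCN (-0.15, adjusted p = 0.0107), a call lost without siMYCN replicate 1. ARNTL2 was lower in siHAND2 than in siMYCN (-0.27, adjusted p = 0.0427), a call lost in 8 of 18 alternatives.

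Of the 13 kinases, ubiquitin ligase parts and deacetylase that act on clock proteins, 11 were tested; FBXL21P and USP2 were too low. In each knockdown 3 rose and 0 fell against siCTR by limma (0 lower also at an unadjusted p under 0.05), with medians of 0.06 and 0.07, where 24.5% (siMYCN) and 18.1% (siHAND2) of all genes tested were called higher. GSK3B, a kinase of several clock proteins, rose from 112 ± 4.68 CPM with siCTR to 136 ± 8.35 with siMYCN and 134 ± 3.91 in siHAND2 (SD, n = 3 libraries), by 0.27 (limma, adjusted p = 0.000544) and 0.26 (adjusted p = 0.000996). Both calls held under all 18 alternatives. BTRC, the ligase subunit for PER proteins, rose by 0.18 and 0.22 (adjusted p = 0.0409 and 0.0176), calls lost under median-ratio rescaling and without siCTR replicate 2 or 3. The siMYCN call was also lost with no filter on low values, under quantile normalization, without the intensity trend and without siMYCN replicate 3, and the siHAND2 call without siHAND2 replicate 1. CSNK1D, a kinase of PER proteins, rose in siMYCN by 0.18 (adjusted p = 0.0438, lost in 9 of 18 alternatives, among them both other scalings and each siCTR library left out, and siMYCN replicate 1 or 2). SIRT1, a deacetylase, rose in siHAND2 by 0.13 (adjusted p = 0.0416, lost in 12 of 18, both other scalings among them). Without siCTR replicate 2 or 3, siMYCN replicate 1 or 3 or any siHAND2 library the SIRT1 call was also lost. Between the knockdowns CUL1 was lower in siHAND2 (-0.17, adjusted p = 0.0105, lost without siHAND2 replicate 2) and SIRT1 higher (0.14, adjusted p = 0.0332, lost in 6 of 18 alternatives).

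Of the 12 output genes, all tested, 1 rose and 4 fell in siMYCN and 2 rose and 4 fell in siHAND2, with medians of -0.04 and -0.05, where 11.4% and 11.8% of all genes tested were called lower. NAMPT, the enzyme that limits NAD recycling, fell from 98.9 ± 1.29 CPM with siCTR to 79.3 ± 4.88 with siMYCN and 81.7 ± 8.08 with siHAND2 (SD, n = 3 libraries), with log2 fold changes of -0.32 (limma, adjusted p = 0.000798) and -0.28 (adjusted p = 0.00274), under all 18 alternatives. PPARGC1A, a coactivator of mitochondrial genes, fell by 0.44 in siMYCN (adjusted p = 0.00862) and by 0.36 in siHAND2 (adjusted p = 0.0285). Its siHAND2 and siCTR libraries overlapped, and that call was lost with no filter on low values and without siCTR replicate 1 or 2 or siHAND2 replicate 1 or 2. TSC22D3, a glucocorticoid-induced gene, rose from 31.0 ± 0.995 CPM to 39.7 ± 0.615 in siMYCN, by 0.35 (adjusted p = 0.000131). Its rise of 0.15 in siHAND2 (adjusted p = 0.0424) and that of DBP there (0.23, adjusted p = 0.0475) were each lost in 12 of 18 alternatives, both other scalings among them.

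KLF9 and NOCT separated the knockdowns. KLF9, a zinc finger transcription factor, stood at 6.79, 6.14 and 5.27 CPM with siCTR, 3.66, 3.41 and 3.05 CPM with siMYCN and 7.00, 7.01 and 6.48 CPM with siHAND2. It fell by 0.69 in siMYCN (limma, adjusted p = 5.44e-05) and was higher in siHAND2 than in siMYCN by 0.84 (adjusted p = 6.4e-06). NOCT, a rhythmic phosphatase of NADP, stood at 24.5, 24.6 and 22.5 CPM with siCTR, 22.5, 21.3 and 23.2 CPM with siMYCN and 17.5, 17.3 and 17.8 CPM with siHAND2. It fell by 0.42 in siHAND2 (adjusted p = 5.84e-05), which lay below siMYCN by a log2 fold change of -0.33 (adjusted p = 0.000593). These 4 calls held under all 18 alternatives. TEF was higher in siHAND2 than in siMYCN (0.21, adjusted p = 0.047, lost in 11 of 18 alternatives), and TSC22D3 (-0.19, adjusted p = 0.0147, lost without siMYCN replicate 3) and KLF10 (-0.17, adjusted p = 0.0304, lost in 6 of 18) were lower.

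**Figure D5:**
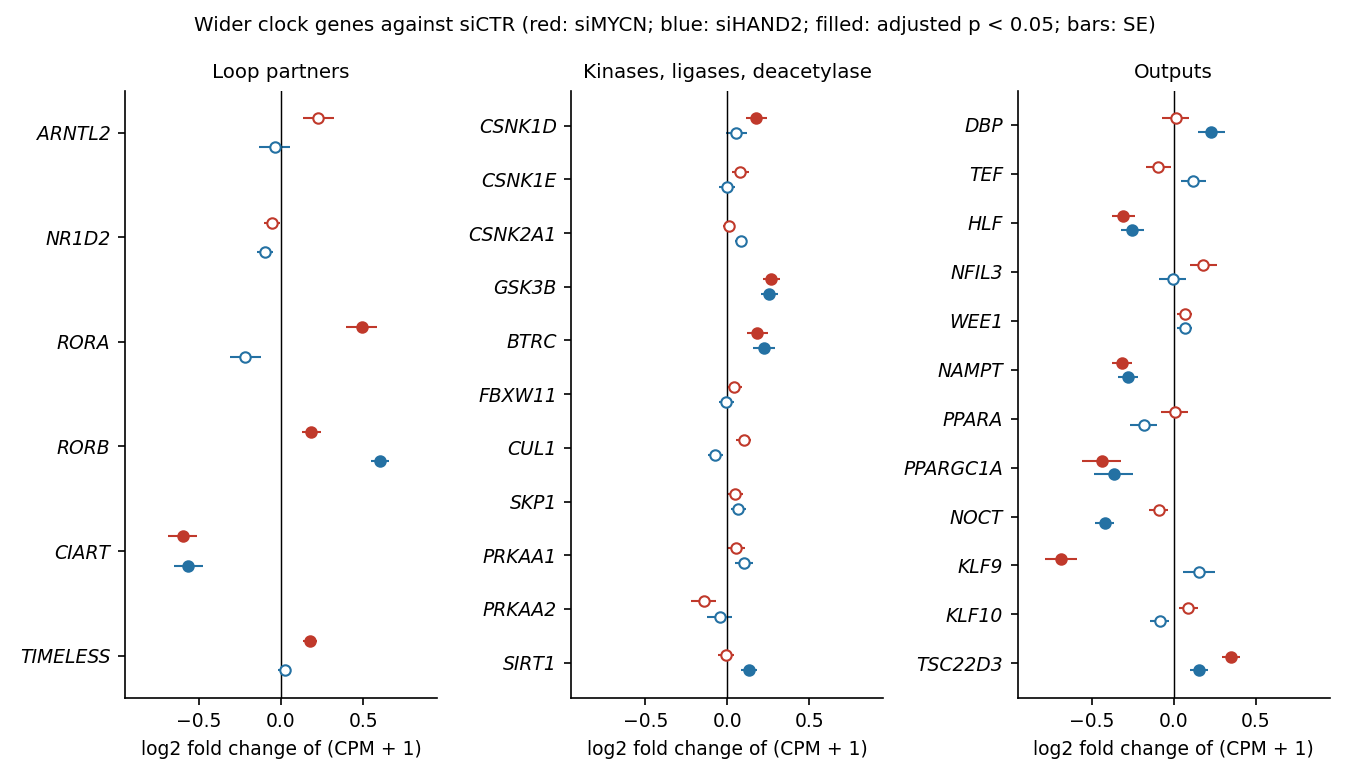
Log2 fold change of (CPM + 1) against siCTR for the 29 tested genes of the 3 wider lists, in siMYCN (red) and siHAND2 (blue), with standard errors as bars and filled points where the adjusted p was under 0.05. Of the genes with filled points in both knockdowns, CIART, NAMPT, PPARGC1A and HLF lie below 0 and GSK3B, BTRC, RORB and TSC22D3 above 0. RORA and KLF9 part the knockdowns.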

How the data were processed

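Total RNA of 9 LAN5 libraries (3 each for siCTR, siMYCN and siHAND2) was sequenced. The authors deposited 1 table of CPM values, which hold a constant of 0.0001 and were used as deposited. STAR 2.5.1, Partek, hg19 and GRCh37 are named in the submitters' processing notes. The positions in the table are GRCh38 positions: of the gene starts, 91.4% lay within 5000 bases of RefSeq GRCh38.p14 and 5.63% of a GRCh37 annotation. The counting rule, use of strand and filters are not given in the sources used here. Exon lengths came from GENCODE 44 lifted to GRCh37, by symbol.

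In each library 77.7% to 80.6% of the values below 20 steps lay within 0.02 of a whole multiple of the smallest step, too few for a count model. Log2(CPM + 1) of the 14495 genes that reached 1 CPM in 3 or more libraries was fitted with limma 3.58.1 in R 4.3.3 (1 mean per group, all 9 libraries, intensity trend), two-sided, with Benjamini-Hochberg adjustment over all genes tested and a threshold of 0.05. The fit was tested on simulated data. The clock genes and lists were chosen with earlier results of these data known, and some genes of the wider lists are not reported here. All clock genes are named, and the 5 genes most correlated with BHLHE40. Of each wider list, up to 3 rises and 3 falls past the threshold per comparison are named. NR1D2, as the paralog of NR1D1, and HLF, in a figure, are named besides. Alternatives tried were other pseudocounts (0.1 and 5), no filter, a filter of 5 CPM, median-ratio and quantile scaling, the 2 groups alone, no intensity trend, a replicate block and each library left out.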

Additional observations from a re-analysis of the deposited data

How the results depend on the processing

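Over 18 alternatives, of which NR1D1 gave no value under the filter of 5 CPM, ARNTL, PER1 and PER2 kept their direction and call in siHAND2 against siCTR. The log2 fold change of ARNTL between siHAND2 and siMYCN, which was not called (-0.02), changed sign under quantile normalization (0.012), and ran from -0.055 to 0.030 over the fits that left out 1 library, with the sign changed without siMYCN replicate 3 and without siHAND2 replicate 2. The difference of CLOCK in siMYCN against siCTR (0.04, given with no test) turned negative under median-ratio rescaling (-0.020), under quantile normalization (-0.011) and without siCTR replicate 2 (-0.018) or siMYCN replicate 3 (-0.043). The cause was not tested.

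Among the 8 clock genes besides BHLHE40, the count called between siHAND2 and siMYCN went by limma from 1 to 0 with no filter, under median-ratio rescaling and without the intensity trend, where 5, 4 and 4 had an unadjusted p under 0.05. It went to 2 with a pseudocount of 0.1, with the filter of 5 CPM and with the replicate block, where PER2 was also called (-0.22, adjusted p = 0.0369). With 1 library left out it was 0 to 3 (0 without siMYCN replicate 1, siMYCN replicate 3 or siHAND2 replicate 3, with 1, 2 and 1 at an unadjusted p under 0.05), and the counts of all genes called there were 2923 to 3992. Against siCTR the counts of all genes called were 4017 to 5845 in siMYCN and 3079 to 4341 in siHAND2. For the wider lists the count of 11 genes called in siHAND2 became 6 to 11, the 11 between the knockdowns 6 to 11, and the 12 in siMYCN 9 to 13. The count in siHAND2 fell to 6 without siCTR replicate 2, siHAND2 replicate 1 or siHAND2 replicate 2, and that between the knockdowns to 6 without siHAND2 replicate 2 and to 7 without siMYCN replicate 3.

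With the replicate block, 5895 genes were called in siMYCN and 5089 in siHAND2 against siCTR, and 4689 between the knockdowns, where the fit without it called 5209, 4339 and 3892. The residuals of libraries with the same number correlated at -0.13 to 0.43, over 0.1 in 8 of 9 pairs. Those of libraries with different numbers correlated at -0.44 to 0.22, and 6 of 9 libraries correlated best with their own number. What equal numbers share is not given in the sources used here, and a shared batch was not tested. The main fit did not take the numbers as pairs. The share of calls that were higher was 68.3% in siMYCN and 60.6% in siHAND2 with CPM as deposited, 49.7% and 42.1% after median-ratio rescaling, and 49.3% and 47.8% after quantile normalization. For NR1D1, near 1 CPM, depth limits the precision, and its log2 fold change in siMYCN went from -0.20 with a pseudocount of 5 to -1.13 with 0.1. For BHLHE40 it went from -0.83 to -1.33.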
